A study of Mus musculus with 3 samples.

Results

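The serpins, a family of protease inhibitors that the liver secretes in large amounts, were described across 3 mouse liver RNA libraries. Genes were taken by name, as those whose symbol starts with Serpin followed by a clade letter from a to i and a number. Of 64 such symbols among the 41799 genes of the files, Serpina7 was left out, so that 63 genes were followed. Of these, 29 had a summed count of at least 30 over the 3 libraries and were compared. A further 15 had between 1 and 29 counts, and 19 were listed at 0 in each library.

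The RNA came from liver of male C57BL/6 mice aged 14 weeks (C57BL/6J in the housing notes), with 1 library from each of 3 groups. The groups ate regular chow, ate a high-fat diet (HFD), or ate the HFD and received DfCS-Ib at 40 mg/kg by oral gavage in distilled water. DfCS-Ib is a code name for what the series' design text calls a sulfated oligosaccharide. The labels give 8 mice per group, do not say how many gave RNA to each library, and mention more groups than the 3 they describe. All mice had the same week of chow beforehand and free access to food and water, while the labels give neither the make-up of the HFD nor the time on it. With 1 library per group there is no replicate check and no test: each comparison below describes these libraries, not the diets or the treatment.

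A serpin works as a bait. Its reactive centre loop, exposed near the carboxy end of the protein, is cut by the target protease, and the cut serpin changes shape and traps the enzyme. Hepatocytes make most plasma serpins, which restrain clotting, fibrinolysis, complement and neutrophil proteases, while clade B serpins stay inside cells and a few members are hormone carriers or chaperones with no inhibitory role. In the mouse, the genes for alpha-1-antitrypsin (Serpina1) and alpha-1-antichymotrypsin (Serpina3) have multiplied into arrays of close copies.

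Total counts were 11028671 in the chow library, 12279537 in the HFD library and 10969699 in the DfCS-Ib library. Counts were put on a CPM scale from these totals, each multiplied by a TMM factor (0.976, 1.048 and 0.978). The totals allow for library size, and the factors adjust for differences in RNA composition. Libraries were compared by the log2 ratio of their CPM after adding 1. A gene was counted as higher or lower from a 2-fold ratio on that scale. Folds given for single genes have no pseudocount, and the ranges beside folds and shares are 95% exact (Clopper-Pearson) intervals that cover counting error only. Levels are compared between genes per length, as the RPKM the authors deposited. Hepatocyte markers summed to 172299, 138243 and 156349 CPM in the chow, HFD and DfCS-Ib libraries, over the 11 of 12 found in the files. Alb supplied most of this, with 112771, 85030 and 93946 CPM, while Cps1 measured 112, 48.4 and 78 CPM. For HFD against chow 4 of the 11 lay above 0, with a median of -0.41, and Tat and Cps1 were at least 2-fold lower. The asialoglycoprotein receptor genes Asgr1 and Asgr2, which hepatocytes are known to express, were listed at 0 in each library, so a serpin at 0 may still be expressed.

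Serpin genes together took 2.39% (2.38 to 2.40) of the counts in the chow library, 2.30% (2.29 to 2.31) in the HFD library and 2.53% (2.52 to 2.54) in the DfCS-Ib library. Serpina3k alone supplied 61.7%, 52.7% and 58.2% of the family's counts in that order. Without it, the family summed to 9386, 10370 and 10825 CPM, so the dip of the family share in the HFD library lay in Serpina3k. By mean RPKM the most abundant members were Serpina3k (8396), Serpina1e (1750), Serpina1d (834), antithrombin Serpinc1 (767), Serpina1c (422), the C1 inhibitor gene Serping1 (363), Serpinf2 (303), Serpinf1 (302), Serpind1 (283) and Serpina3n (217). Each of these 10 encodes a protein secreted into plasma. The lowest member compared was Serpinb8, at 0.386 RPKM.

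**Figure D1:**
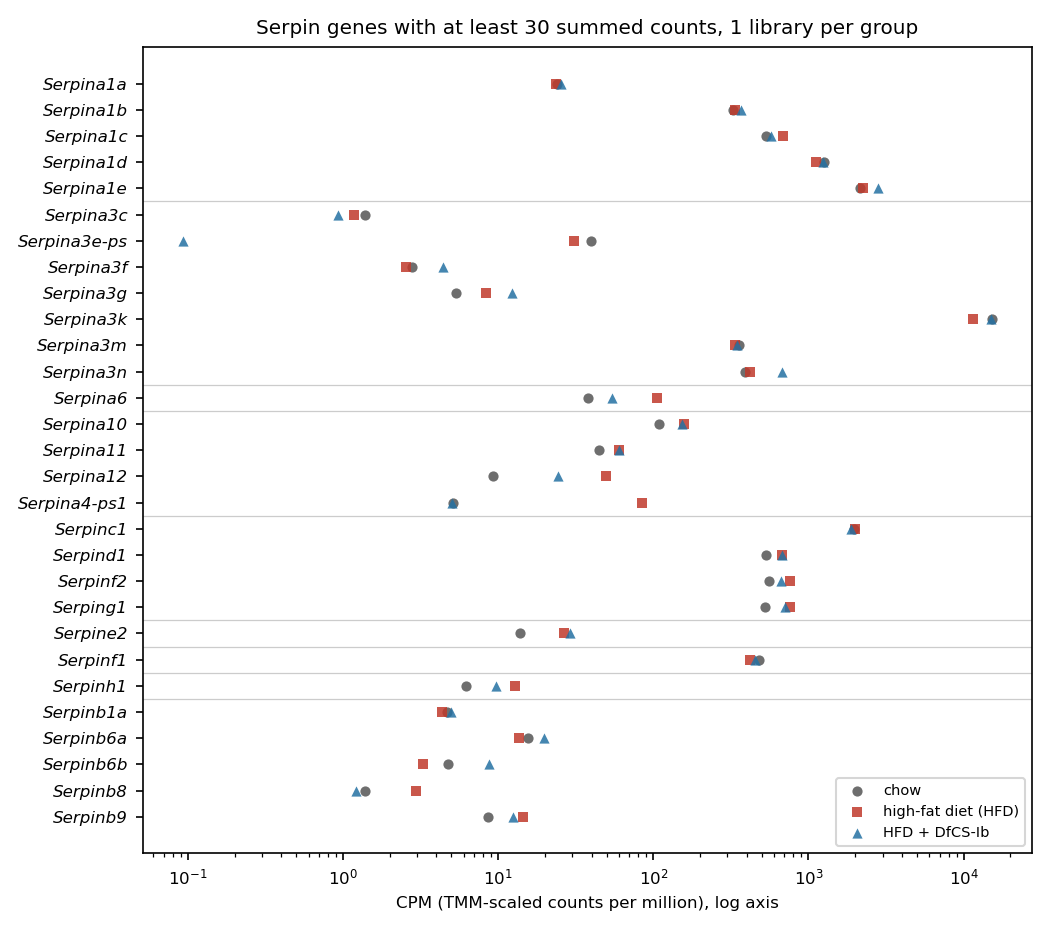
Level of each of the 29 compared serpin genes in the 3 libraries, as TMM-scaled CPM on a log axis, with 1 point per library and grey lines between functional groups. Most members stay within 2-fold in each comparison, though many are not level. Serpina4-ps1 is high in the HFD library and Serpina3e-ps is low in the DfCS-Ib library.

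Few serpins differed by 2-fold, and none of those that did was above 105 CPM in any library. In the HFD library against chow, 3 of 29 were at least 2-fold higher (10.3%), beside 3.45% of the 13484 genes of the same minimum count, and 0 were at least 2-fold lower, beside 2.23% of all genes. The 3 were Serpina4-ps1, Serpina12 and Serpina6. In the DfCS-Ib library against HFD, 1 member was higher, Serpinb6b, beside 2.43% of all genes, and 2 were lower, Serpina4-ps1 and Serpina3e-ps, beside 2.01%. In the DfCS-Ib library against chow, 3 were higher, Serpina12, Serpina3g and Serpine2, beside 1.61%, and 1 was lower, Serpina3e-ps, beside 0.438%. With 29 members, a share of 3.45% is 1 gene, so these counts are small.

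The median log2 ratio of the 29 members was 0.10 for HFD against chow, where all genes had 0.02. With the Serpina1 copies summed and the Serpina3 copies summed, which leaves 19 values, it was 0.45. As single genes it was 0.00 for DfCS-Ib against HFD (all genes -0.01) and 0.32 for DfCS-Ib against chow (all genes 0.00). Ratios were above 0 for 18, 15 and 20 members in that order, and for 52.1%, 48.4% and 51.0% of all genes. The 3 comparisons share libraries, so a high or low value in 1 library enters 2 of them. With library totals in place of TMM factors, 21, 13 and 20 members lay above 0. Serpina1a, Serpina3m and Serpinb1a changed sign there in the first comparison and Serpina11 and Serpina3m in the second, all from ratios of at most 0.08 in size.

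Some genes set a single library against the other 2, differing from each of them by 2-fold or more while those agreed to within 1.5-fold. Such a library is called apart. For Serpina4-ps1 the HFD library stood apart on the high side, as for 1.14% of all genes. For Serpina3e-ps the DfCS-Ib library stood apart on the low side, as for 0.0297% of all genes. No member had the HFD library apart on the low side (1.02% of all genes) or the DfCS-Ib library apart on the high side (0.267%). The same held for the chow library on the high side (0.126%) and on the low side (0.504%).

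**Figure D2:**
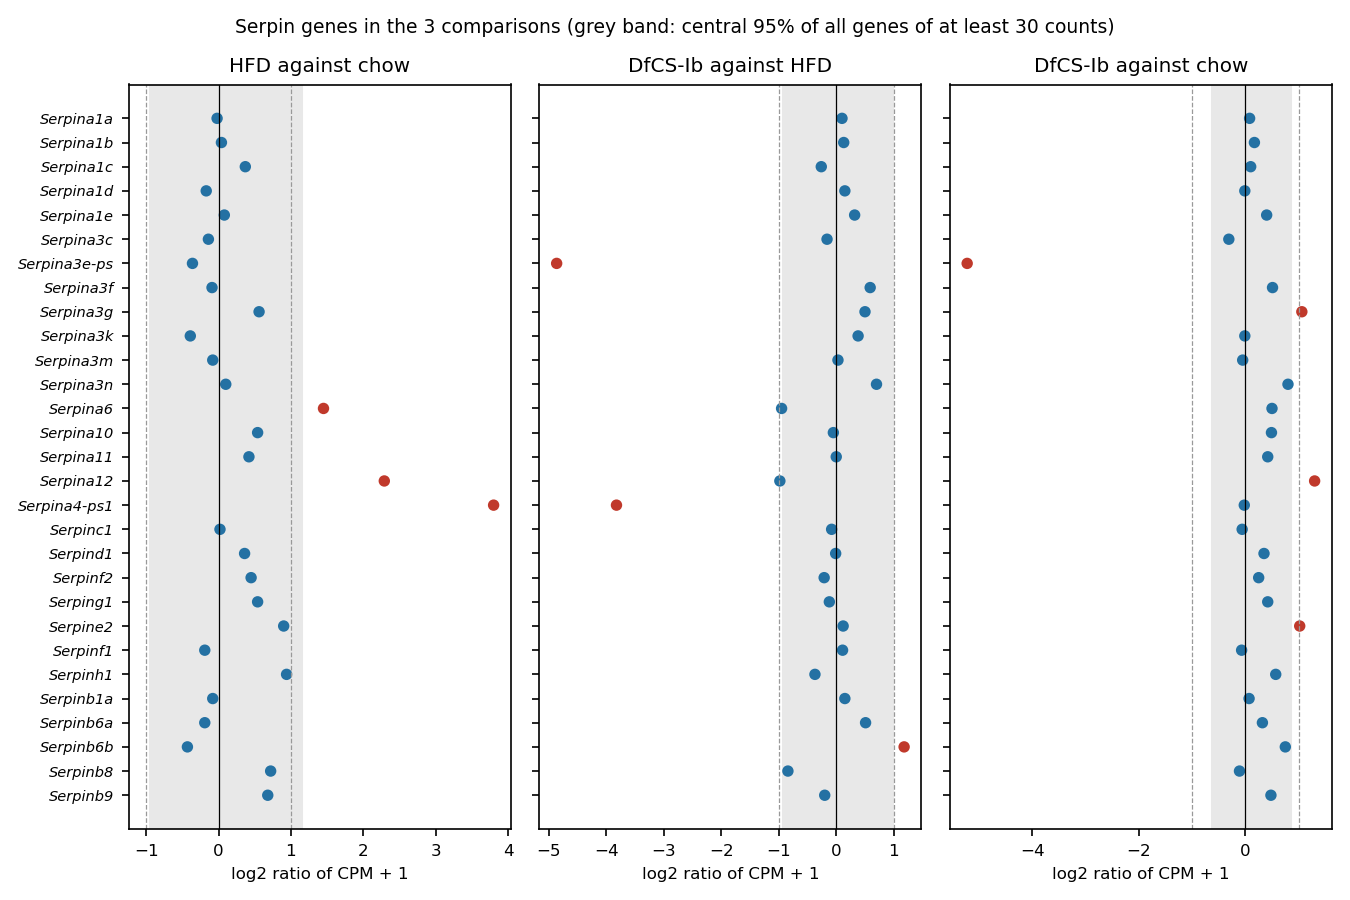
Log2 ratio of CPM plus 1 for each of the 29 serpin genes in the 3 comparisons, which share libraries. The grey band holds the central 95% of the 13484 genes (-0.95 to 1.15, -0.92 to 0.99 and -0.63 to 0.85), dashed lines mark 2-fold and red points lie past it; Serpina4-ps1 at 3.80 and -3.82 and Serpina3e-ps at -4.86 and -5.22 lie far outside the others.

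The Serpina1 genes encode alpha-1-antitrypsin, the main plasma inhibitor of neutrophil elastase. Of the 6 copies, 5 were compared and Serpina1f was listed at 0. Over their coding sequence (GENCODE M21, GRCm38) the 5 compared copies were 96.3% to 98.5% identical to each other, and 34.2% to 73.3% of the 50-base windows of their transcripts occurred unchanged in another serpin gene. How the authors counted reads with several placements is not given in the sources used here, so the division of reads among these copies is uncertain. The 60 coding bases with the most differences, which lay near the 3′ end, are shown because they help to set the copies apart, at bases 1170 to 1229 for Serpina1a and 1101 to 1160 for the others. Capitals mark the 18 of 60 positions at which the 5 copies are not all alike, out of 86 such positions in the 1242 coding bases aligned without a gap (6.9%).
Serpina1a: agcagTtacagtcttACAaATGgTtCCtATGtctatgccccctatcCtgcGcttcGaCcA
Serpina1b: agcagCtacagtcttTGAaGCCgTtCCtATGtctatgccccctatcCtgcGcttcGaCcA
Serpina1c: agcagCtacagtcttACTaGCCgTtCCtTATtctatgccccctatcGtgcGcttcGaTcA
Serpina1d: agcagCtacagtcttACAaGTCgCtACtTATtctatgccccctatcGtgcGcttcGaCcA
Serpina1e: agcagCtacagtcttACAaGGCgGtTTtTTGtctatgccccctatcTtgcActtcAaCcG

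Serpina1e, the most abundant copy, measured 2143 CPM in the chow library, 2259 in the HFD library and 2818 in the DfCS-Ib library. That is 1.25-fold (1.23 to 1.27) higher with DfCS-Ib than on HFD alone. Serpina1d measured 1252, 1116 and 1243 CPM and was lowest in the HFD library. Serpina1c went the other way, with 534, 688 and 573 CPM, and was 1.29-fold (1.25 to 1.33) higher in the HFD library than in the chow library. Serpina1b measured 328, 337 and 369 CPM and Serpina1a 24.0, 23.6 and 25.4 CPM. All 5 stayed well within 2-fold in each comparison.

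Summed, the copies measured 4281, 4424 and 5029 CPM, 1.14-fold (1.12 to 1.15) higher in the DfCS-Ib library than in the HFD library. This sum does not depend on how reads were split among the copies if each read was counted a single time. If reads with several placements were dropped or counted at each placement, the sum would depend on that. The make-up of the sum did differ. Serpina1e supplied 50.1% (49.6 to 50.5) of it in the chow library, 51.1% (50.7 to 51.5) in the HFD library and 56.0% (55.6 to 56.5) in the DfCS-Ib library. Serpina1c supplied 12.5%, 15.6% and 11.4%, highest in the HFD library, and Serpina1d 29.2%, 25.2% and 24.7%. The files place Serpina1b on the scaffold NT_114988.1, off the main chromosomes, and the other copies on chromosome 12.

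The Serpina3 array holds 12 copies in these files, of which 7 were compared. Its products include inhibitors of chymotrypsin-like enzymes and of kallikrein. Serpina3k, the gene of kallikrein-binding protein, took 1.48% (1.47 to 1.48), 1.21% (1.21 to 1.22) and 1.47% (1.46 to 1.48) of all counts and ranked 5, 7 and 6 among all genes by RPKM in the chow, HFD and DfCS-Ib libraries. Its level was 15138 CPM in the chow library, 11567 in the HFD library and 15049 in the DfCS-Ib library. The HFD library was thus 1.31-fold (1.30 to 1.32) lower than chow, while chow and DfCS-Ib were nearly equal, with chow at 1.01-fold (0.999 to 1.01) of DfCS-Ib. Hepatocyte markers had a median log2 ratio of -0.41 for HFD against chow, with 4 of 11 above 0. For DfCS-Ib against HFD it was 0.37, with 9 of 11 above 0. The part of hepatocyte RNA in the Serpina3k values was not tested.

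Serpina3n, a gene known to be induced in the acute phase response, showed another order. It measured 389 CPM in the chow library, 418 in the HFD library and 679 in the DfCS-Ib library. The DfCS-Ib value was 1.63-fold (1.57 to 1.68) above HFD and 1.74-fold (1.68 to 1.81) above chow. Serpina3m stayed nearly level at 358, 338 and 345 CPM. Of the 50-base windows of its transcript, 19.1% occurred unchanged in another serpin gene, most of them in Serpina3k. Reads of Serpina3m could thus be shared with the far more abundant Serpina3k, and its level is uncertain to that extent. Serpina3k and Serpina3m were 91.8% identical in coding sequence, Serpina3k and Serpina3n 83.7%, and Serpina3m and Serpina3n 85.2%. The 60 coding bases that differ most among the 3 abundant copies are printed to show how far they part at the region near the carboxy end. They run from base 1103 to 1162 in Serpina3k and from 1097 to 1156 in the others, and capitals mark the 26 positions that are not all alike (43.3% of the window against 19.6% of the 1251 coding bases aligned without a gap).
Serpina3k: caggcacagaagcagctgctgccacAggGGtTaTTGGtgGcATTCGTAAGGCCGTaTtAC
Serpina3m: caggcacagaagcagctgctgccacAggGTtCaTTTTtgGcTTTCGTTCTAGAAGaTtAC
Serpina3n: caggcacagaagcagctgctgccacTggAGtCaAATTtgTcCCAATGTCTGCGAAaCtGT

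Serpina3g, a copy known from T cells and macrophages, had low counts: 58 in the chow library, 108 in the HFD library and 132 in the DfCS-Ib library. Its levels were 5.39, 8.39 and 12.3 CPM, and the DfCS-Ib library was 2.28-fold (1.66 to 3.16) above chow. Of the 50-base windows of its transcript, 8.7% occurred unchanged in Serpina3h and others in further serpin genes. Reads of Serpina3g could thus be shared with copies, which the interval does not cover. Macrophage and Kupffer cell markers had the same order of libraries: 12 genes were compared, their summed level was 405, 512 and 865 CPM, and 12 of 12 were higher in the DfCS-Ib library than in each of the others. Neutrophil markers summed to 2.79, 3.73 and 5.13 CPM, with Ly6g and Mpo listed at 0, and T, NK and B cell markers to 3.44, 4.04 and 3.64 CPM. The part of these cells in the Serpina3g values was not tested. In whole liver, fewer cells of a type and less RNA per cell cannot be told apart.

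Serpina3f had 30, 33 and 47 counts and Serpina3c 15, 15 and 10. With a sum of 40, Serpina3c was the compared member of lowest count. Neither differed by 2-fold. The copies under 30 counts were Serpina3a, Serpina3b, Serpina3h, Serpina3i and Serpina3j.

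Serpina3e-ps was nearly missing from the DfCS-Ib library. It is annotated in the files as a pseudogene at chromosome 12, 104188794 to 104194860 of mm10, on the minus strand. It had 427 counts in the chow library, 396 in the HFD library and 1 in the DfCS-Ib library. The DfCS-Ib library was lower than HFD by 330-fold (58.9 to 13073) and lower than chow by 426-fold (76.0 to 16854), with wide intervals because a single count is left. Its log2 ratios of -4.86 and -5.22 were the lowest of all 13484 genes in those comparisons. The HFD library was 1.29-fold (1.12 to 1.48) lower than chow, at 30.8 against 39.7 CPM.

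The neighbours of Serpina3e-ps in the array did not share this value. Serpina3c on one side had 10 counts in the DfCS-Ib library and Serpina3f on the other had 47. Relative to all Serpina3 counts, Serpina3e-ps made up 0.249% (0.226 to 0.274) in the chow library, 0.249% (0.225 to 0.275) in the HFD library and 0.000579% (1.47e-05 to 0.00323) in the DfCS-Ib library. Serpina3k made up 95%, 93.5% and 93.5%, and Serpina3n 2.44%, 3.38% and 4.22%. The transcript of Serpina3e-ps in GENCODE M21 was closest to Serpina3i (91.4% identity), followed by Serpina3f (90.4% over nearly as many bases), and 83.1% identical to Serpina3k. Of its 50-base windows, 21.3% occurred unchanged in another serpin gene, so reads could be shared with copies. When all Serpina3 copies were summed, the array measured 15936, 12367 and 16093 CPM and was not 2-fold apart in any comparison.

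**Figure D3:**
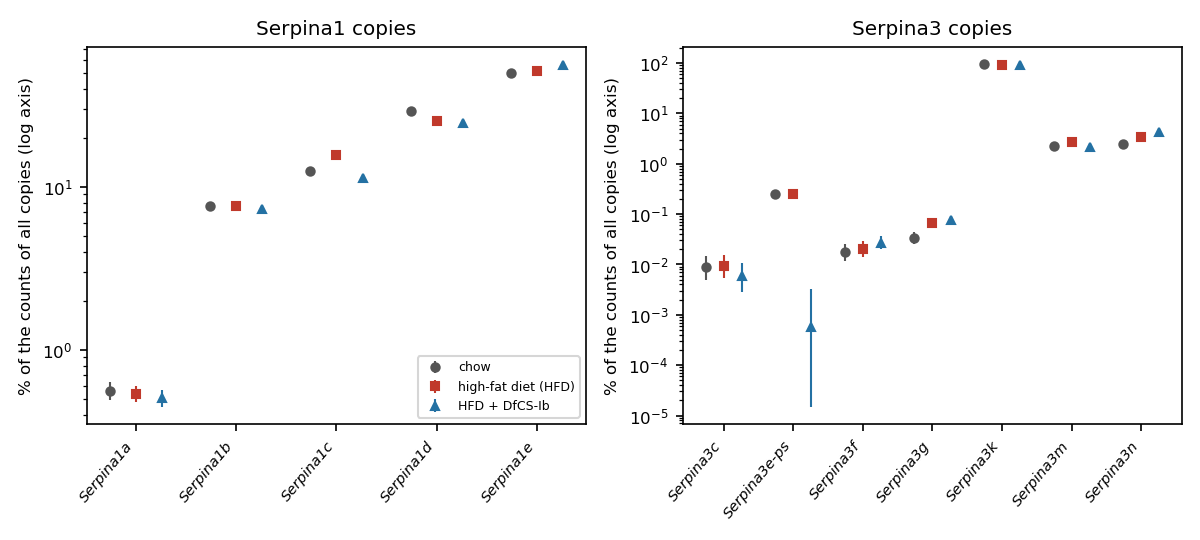
Share of each copy in the summed counts of the Serpina1 copies (left) and of the Serpina3 copies (right) in the 3 libraries, on log axes, with 95% exact intervals that cover counting error only; copies under 30 counts are not drawn. Serpina1e is at 56.0% in the DfCS-Ib library, and Serpina3e-ps is at 0.000579% there against 0.249% in the others, while Serpina3k lies at 93.5% or above in each.

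Serpina4-ps1 had the widest swing with the HFD library. It carries the name of a pseudogene of the kallistatin gene Serpina4, is typed misc_RNA in the files, and lies on chromosome 12, 104077959 to 104086920, plus strand. It had 55 counts in the chow library, 1084 in the HFD library and 54 in the DfCS-Ib library, or 5.11, 84.2 and 5.03 CPM. The HFD library was 16.5-fold (12.6 to 22.0) above chow, and the DfCS-Ib library was 16.7-fold (12.7 to 22.4) below HFD. The DfCS-Ib and chow libraries were alike to within counting error (0.985-fold, 0.664 to 1.46). None of the 50-base windows of its transcript (0.0%) occurred in another serpin gene, which sets it apart from Serpina3e-ps.

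Serpina12, the serpin gene next to Serpina4-ps1 in the array, showed a smaller peak in the same library. It encodes vaspin, an adipokine described in visceral fat that inhibits kallikrein-related proteases. Its counts were 100, 633 and 262, or 9.29, 49.2 and 24.4 CPM in the chow, HFD and DfCS-Ib libraries. HFD was 5.29-fold (4.28 to 6.60) above chow, and DfCS-Ib was 2.01-fold (1.74 to 2.34) below HFD, a log2 ratio of -0.98 on CPM plus 1 that lay just short of the 2-fold rule. The DfCS-Ib library was still 2.63-fold (2.08 to 3.34) above chow. A long noncoding gene model, Gm31271, overlaps Serpina12 on the opposite strand with 12, 84 and 37 counts, and since no strand setting is stated, reads of this pair cannot be told apart. Summed adipocyte markers were 6.88, 12.1 and 10.7 CPM, with Retn and Lep listed at 0, and their part in the Serpina12 values was not tested. The 2 with at least 30 counts had different orders: Cfd had 1, 77 and 3 counts and Fabp4 73, 77 and 112.

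Serpina6, the gene of corticosteroid-binding globulin, which carries glucocorticoids in plasma, followed the same order. It measured 37.7 CPM in the chow library, 105 in the HFD library and 53.9 in the DfCS-Ib library, from 406, 1350 and 578 counts. HFD was 2.78-fold (2.49 to 3.11) above chow. DfCS-Ib was 1.95-fold (1.77 to 2.15) below HFD, a log2 ratio of -0.95, and 1.43-fold (1.26 to 1.63) above chow. With library totals in place of TMM factors, Serpina12 and Serpina6 also passed 2-fold, and 4 members rather than 2 were lower in the DfCS-Ib library than in HFD.

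The remaining clade A members differed less. Serpina10, which encodes the protein Z-dependent inhibitor of factor Xa, measured 109, 158 and 153 CPM, and was 1.46-fold (1.35 to 1.57) higher in the HFD library than in the chow library. Serpina11 measured 44.7, 60.2 and 60.3 CPM. In both genes the chow library was the low one and the others were nearly equal. Serpina5 and Serpina9 had under 30 counts.

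Most clade A genes lie together. On chromosome 12, from 103616675 to 104414334 of mm10, 24 serpin genes occupy 798 kb, 16 of them with at least 30 counts, and the files place 4 other gene models in this span. The members that differed by 2-fold did not form a run of neighbours, apart from the adjacent pair Serpina12 and Serpina4-ps1. Serpina6 is gene 2 of the 24 in order, and this pair are genes 10 and 11. Between them lie Serpina11, Serpina9 and the Serpina1 copies placed on chromosome 12, of which those compared were within 2-fold.

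**Figure D4:**
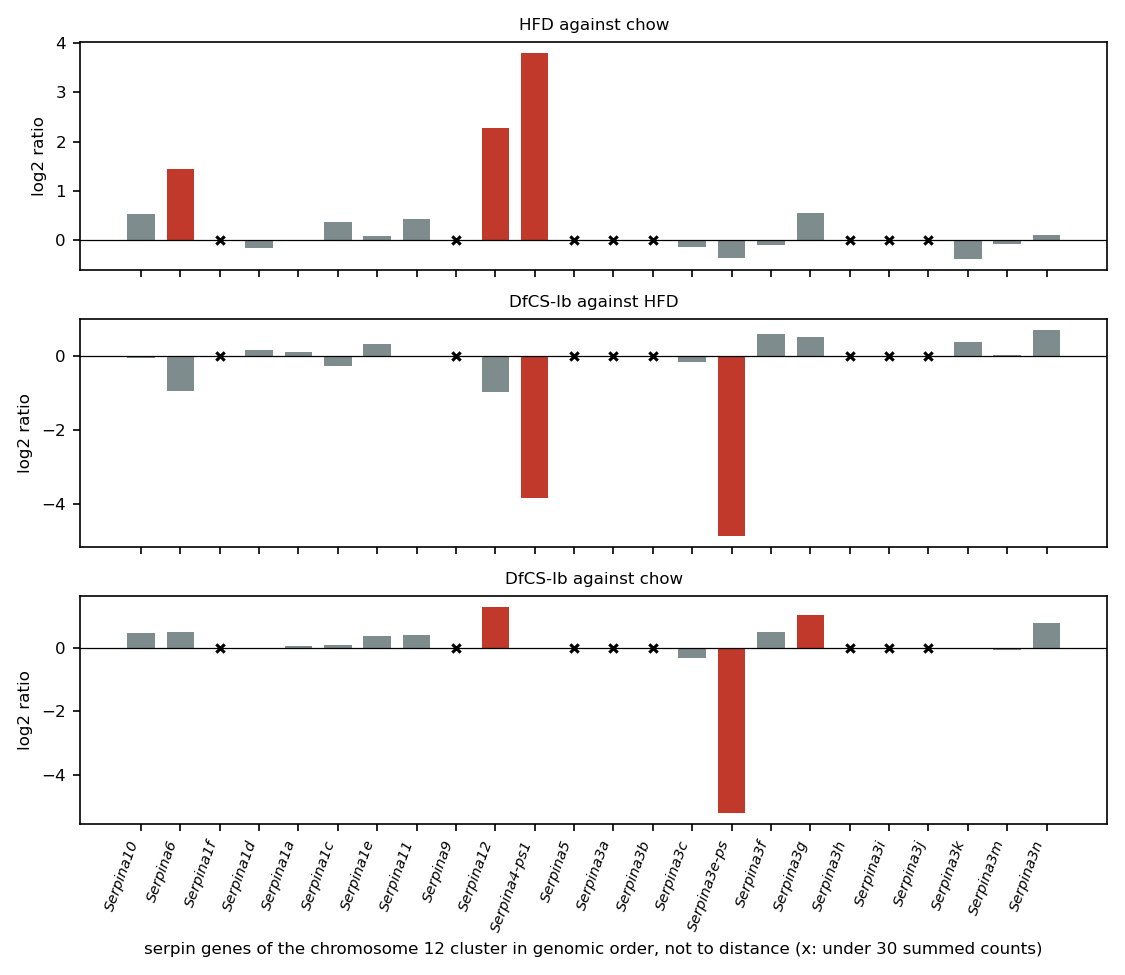
Log2 ratio of CPM plus 1 for the 24 serpin genes of the chromosome 12 array in their order along the chromosome, not to distance, in the 3 comparisons; red bars are at least 2-fold, crosses mark genes under 30 counts. The high bars for HFD against chow are Serpina6 (1.45), Serpina12 (2.29) and the adjacent Serpina4-ps1 (3.80), and the deepest bar in both DfCS-Ib comparisons is Serpina3e-ps (-4.86 and -5.22).

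Upstream sequence was looked at for the members that RefSeq's promoter table (GRCm38.p6) holds, 21 of the 29. Serpina10, Serpina3e-ps, Serpina3k, Serpina3m, Serpina4-ps1, Serpina6, Serpinb1a and Serping1 had no entry. Motifs were searched on both strands in the 250 bases before each start, in 24 serpin promoters and in 32851 promoters of all genes. The HNF1 motif GTTAAT occurred in 29.2% of serpin promoters and 6.4% of all, and all 5 compared Serpina1 copies had it. The glucocorticoid receptor motif AGAACA occurred in 33.3% against 16.1%, the C/EBP-type motif TTGCNNAA in 25.0% against 9.6%, and the FOXA motif TGTTTAC in 0.0% against 3.2%. The STAT-type motif TTCNNNGAA occurred in 25.0% against 7.0%, and its stricter form TTCCNGGAA, which it contains, in 12.5% against 0.9%. The 24 promoters belong to 21 genes, and overlapping entries of Serpina11 and of Serpina3f count a site again: by gene the loose STAT-type motif was in 4, the strict form in 2 and the C/EBP-type motif in 5. Close copies also share their upstream sequence, so these shares do not count independent genes, and a match is a description of letters, not of binding. Of the members past 2-fold with an entry, Serpinb6b and Serpine2 had none of these motifs. The upstream bases are printed for the 2 members past 2-fold that had a match: Serpina12 (chr12:104044444-104044693, minus strand, C/EBP-type match in capitals) and Serpina3g (chr12:104235897-104236146, plus strand, match to the loose STAT-type motif in capitals).
Serpina12: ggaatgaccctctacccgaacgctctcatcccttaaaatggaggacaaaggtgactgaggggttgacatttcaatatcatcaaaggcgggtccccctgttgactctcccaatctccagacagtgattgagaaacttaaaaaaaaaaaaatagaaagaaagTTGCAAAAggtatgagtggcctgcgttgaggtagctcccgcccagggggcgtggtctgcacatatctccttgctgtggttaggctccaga
Serpina3g: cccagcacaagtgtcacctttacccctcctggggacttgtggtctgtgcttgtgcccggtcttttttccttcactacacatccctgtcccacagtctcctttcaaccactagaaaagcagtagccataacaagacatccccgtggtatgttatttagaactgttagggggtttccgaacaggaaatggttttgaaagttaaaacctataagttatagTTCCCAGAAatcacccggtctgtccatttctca

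The 4 plasma inhibitors of clotting, fibrinolysis and complement all stayed within 2-fold. Serpinc1, antithrombin, which inhibits thrombin and factor Xa, measured 1953, 1980 and 1871 CPM and was the flattest of the 4. Serpind1, heparin cofactor II, another thrombin inhibitor, measured 529, 680 and 673 CPM. Serpinf2, the alpha-2-antiplasmin gene, measured 559, 764 and 663 CPM. Serping1, which encodes the inhibitor of the complement proteases C1r and C1s, measured 526, 764 and 704 CPM.

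Serping1 was 1.45-fold (1.4 to 1.5), Serpinf2 1.37-fold (1.33 to 1.41) and Serpind1 1.29-fold (1.24 to 1.33) higher in the HFD library than in the chow library, while Serpinc1 was at 1.01-fold (0.995 to 1.03). The group's median log2 ratio was 0.41 for HFD against chow, -0.10 for DfCS-Ib against HFD and 0.30 for DfCS-Ib against chow. Serpind1 lies within Pi4ka on the opposite strand (998, 503 and 622 counts), and Gm35391 overlaps Serpinf2 (148, 189 and 152 counts), so some of these reads may belong to the overlapping model.

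Serpine2 encodes protease nexin 1, which inhibits thrombin and plasminogen activators at cell surfaces. It had 149 counts in the chow library, 343 in the HFD library and 312 in the DfCS-Ib library, or 13.8, 26.7 and 29.1 CPM. The chow library was the low one: HFD was 1.93-fold (1.58 to 2.35) above it and DfCS-Ib 2.10-fold (1.72 to 2.57). Serpine3 had 7 counts.

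Serpinf1 encodes pigment epithelium-derived factor, which has the serpin fold but inhibits no protease and binds the lipase encoded by Pnpla2. It measured 479, 421 and 455 CPM and was 1.14-fold (1.09 to 1.18) lower in the HFD library than in the chow library. Pnpla2 itself measured 141, 44.9 and 124 CPM, 3.15-fold (2.86 to 3.47) lower in the HFD library than in the chow library and 2.76-fold (2.50 to 3.05) higher in the DfCS-Ib library than in HFD. The folds of the receptor gene were thus larger than that of the serpin gene, which stayed close to level.

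Serpinh1, the collagen chaperone of the endoplasmic reticulum, had 67, 165 and 104 counts, or 6.23, 12.8 and 9.69 CPM. HFD was 2.06-fold (1.54 to 2.78) above chow without a pseudocount and 0.94 on the log2 scale of CPM plus 1, short of the 2-fold rule. Among the 13 collagen genes that the list of its clients holds, 1 was at least 2-fold higher in the HFD library than in chow. This was Col3a1, with 9.94, 23.2 and 21.2 CPM. At least 2-fold lower were 0, and the median was 0.11. Of all genes, 3.45% were at least 2-fold higher and 2.23% lower, with a median of 0.02. Stellate cell and fibroblast markers summed to 380, 318 and 439 CPM over 10 genes, of which 4 were higher in HFD than in chow (Acta2, Pdgfrb, Tagln and Colec11) and 6 lower. Dcn, at 189, 139 and 213 CPM, and Reln, at 86.1, 75.5 and 107 CPM, made up most of the sum. The part of these cells in the Serpinh1 values was not tested.

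Clade B, the intracellular serpins, had few counts in these files: of 27 members, 5 were compared, 5 had 1 to 29 counts and 17 were listed at 0. The 5 compared ones lay between 0.386 and 8.22 mean RPKM. Serpinb6b, related to an inhibitor of granzymes and cathepsin G, had 51, 42 and 93 counts and 4.74, 3.26 and 8.67 CPM. Its DfCS-Ib value was 2.66-fold (1.83 to 3.92) above HFD and 1.83-fold (1.29 to 2.63) above chow, so the lower bound of the first interval lies under 2-fold. Macrophage and Kupffer cell markers, given above, were highest in the same library. For HFD against chow 11 of the 12 lay above 0 (median 0.24), while Serpinb6b was 1.45-fold (0.946 to 2.24) lower in HFD. The part of these cells in the Serpinb6b values was not tested.

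Serpinb6a, its relative with a higher mean level (8.22 against 2.24 RPKM), had 168, 175 and 212 counts, and shares its locus with Nqo2 and Ripk1 on the opposite strand (846, 1640 and 850 counts for Nqo2). Serpinb9, which inhibits granzyme B, measured 8.64, 14.5 and 12.5 CPM. Serpinb1a, an inhibitor of neutrophil elastase, was level at 4.65, 4.35 and 4.94 CPM. Serpinb8 had 15, 38 and 13 counts, high in the HFD library, with a log2 ratio of 0.72 against chow. Neuroserpin, Serpini1, had 4 counts and Serpini2 was listed at 0.

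Most proteases that serpins restrain stayed within 2-fold. Of 19 compared, F11, the factor XI gene, was at least 2-fold higher in the HFD library than in the chow library, with 40.6, 86.0 and 53.8 CPM, and Ctsl, the gene of the lysosomal protease cathepsin L, was at least 2-fold lower, with 1199, 512 and 958 CPM. In the DfCS-Ib library against either other library 0 of the 19 passed 2-fold. The list's medians were 0.21, 0.00 and 0.12. Of 11 cofactors and receptors, Pnpla2 was lower in HFD than in chow. Thbd, the thrombomodulin gene, and Pnpla2 were higher in DfCS-Ib than in HFD, Thbd with 8.83, 4.27 and 13.3 CPM. Of all genes, 3.45% were at least 2-fold higher and 2.23% lower in HFD than in chow. In DfCS-Ib against HFD 2.43% of all genes were at least 2-fold higher.

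Of 18 genes for folding and export from the endoplasmic reticulum, where serpins are known to misfold easily, 0 differed by 2-fold in any comparison. For HFD against chow 16 of 18 lay above 0 (median 0.22), beside 52.1% of all genes (median 0.02). For DfCS-Ib against HFD 4 lay above 0 (median -0.12), beside 48.4% of all genes. For DfCS-Ib against chow 15 did (median 0.11), beside 51.0%. Other plasma protease inhibitors, 18 genes such as the inter-alpha-trypsin inhibitors, also had 0 members past 2-fold. Their median was -0.04 for HFD against chow, 0.29 for DfCS-Ib against HFD and 0.22 for DfCS-Ib against chow. All genes had medians of 0.02, -0.01 and 0.00. Angiotensinogen, Agt, a serpin by fold and not by name, measured 753, 475 and 563 CPM. It was 1.59-fold (1.53 to 1.64) lower in the HFD library than in the chow library, a lower value in HFD as for Serpina3k.

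Regulators known to act on hepatic serpin genes included several past 2-fold. Of 22 compared, 3 were at least 2-fold higher in the HFD library than in the chow library, the growth hormone receptor gene Ghr (301, 634 and 418 CPM), Foxa2 (14.6, 40.9 and 26.3 CPM) and Onecut1 (8.36, 32.3 and 6.80 CPM). The interleukin-6 receptor gene Il6ra (97.9, 29.3 and 108 CPM) and Foxa3 (78.0, 37.0 and 58.9 CPM) were lower. In the DfCS-Ib library against HFD, Cebpb (71.6, 56.4 and 188 CPM), Il6ra and Socs3 (7.99, 4.12 and 14.0 CPM) were higher and Onecut1 lower. Cebpb, which encodes an acute phase transcription factor, was also the 1 regulator higher in DfCS-Ib than in chow. Of all genes, 3.45% were at least 2-fold higher and 2.23% lower in HFD than in chow. In DfCS-Ib against HFD 2.43% were higher and 2.01% lower, and in DfCS-Ib against chow 1.61% were higher. The medians of the 22 regulators were -0.05, 0.06 and 0.08 in the order of these comparisons. These lists were not tested as groups, and no link between a regulator and a serpin was tested.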

How the data were processed

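Per the file headers, the authors deposited raw read counts per gene and an RPKM value for each library, with gene type, mm10 position, strand and length. Alignment used TopHat2 and mm10, per the submitters' processing notes. Nothing on the read counter, its strand setting, reads with several placements or the annotation version is given in the sources used here. Counts were scaled with TMM factors (edgeR 4.0.16, R 4.3.3) and log2 ratios taken on CPM plus a pseudocount of 1, which understates differences of low genes. Depth was 11028671, 12279537 and 10969699 counts for chow, HFD and DfCS-Ib. Reads without molecular identifiers are not independent molecules, so intervals cover counting error only. Groups followed the labels. The values of 1 member under 30 counts are not reported here. The scripts were checked on simulated data. Genes with a summed count of at least 30 entered the comparisons; members at least 2-fold apart in any comparison and the 10 of highest mean RPKM are given in full, and of each pathway list at most 4 genes per comparison past 2-fold, by mean CPM. Alternatives covered other scalings (totals, DESeq2 1.42.0 size factors, totals without the 50 most abundant genes), RPKM, pseudocounts of 0.25 and 5, filters, summed copies and a counting interval. Members and lists were chosen with earlier results of these data known; the assignment of Serpina3e-ps to the Serpina3 copies and the window lengths of 50 and 60 bases were chosen after the files were seen. Sequences were aligned with Biopython 1.88 and MAFFT 7.526.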

Additional observations from a re-analysis of the deposited data

How the results depend on the processing

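No paired analysis was possible because each group has 1 library, and no replicate could be left out. Of 87 alternative values for the counts and medians, 74 stayed close to the reported one and 13 moved; no log2 ratio of a named member past 2-fold changed sign. The median for HFD against chow, 0.10 as reported, was 0.45 with the copies summed and 0.20 with library totals alone or RPKM. For DfCS-Ib against HFD, the number of members higher, 1 as reported, was 0 with RPKM, with a pseudocount of 5 and with a counting interval wholly past 2-fold, and 2 with no filter. The number lower, 2 as reported, was 4 with library totals alone, with RPKM and with a pseudocount of 0.25, and 1 with the copies summed, since Serpina3e-ps then no longer stands alone. For DfCS-Ib against chow, the number higher, 3 as reported, was 1 with RPKM, with a pseudocount of 5 and with the counting interval, Serpina12 in each case, and the number lower, 1 as reported, was 0 with the copies summed. Library totals alone moved the median of all genes to 0.11 for HFD against chow and -0.10 for DfCS-Ib against HFD. The pseudocount set the ends of the widest ranges of single members: over the alternatives Serpina3e-ps ran from -6.50 to -2.81 (log2, DfCS-Ib against HFD) and Serpina4-ps1 from 3.14 to 3.98 (HFD against chow). Serpina3g ran from 0.74 to 1.15 (DfCS-Ib against chow) and Serpinb6b from 0.73 to 1.34 (DfCS-Ib against HFD). Depth itself was not varied; counting intervals show its limit for members with few counts.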

Other observations

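Among all genes, Serpina3e-ps was the sole one with at least 100 counts in both other libraries and at most 3 in the DfCS-Ib library, out of 7640 genes with at least 100 counts in the chow and HFD libraries. With at most 3 counts in the chow library there were 0 such genes of 7707, and in the HFD library 0 of 7560. This rule was chosen after the gene's values had been seen, and with 1 library per group it describes these libraries.

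Of 9 exocrine pancreas markers, 7 were listed at 0 in each library, and Cela1 made up most of the summed 4.55, 13.7 and 6.06 CPM of the chow, HFD and DfCS-Ib libraries, with 3.35, 13.2 and 5.31 CPM. Like Serpina4-ps1, Serpina12 and Serpina6, Cela1 had its highest value in the HFD library; the part of pancreatic RNA in those serpin values was not tested.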
